A study of Sus scrofa with 36 samples.

Results

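The proteasome subunit genes were described in the liver of 36 growing castrated male pigs. Members were all GeneNames of the array, control probes left out, that start with PSMA, PSMB, PSMC, PSMD, PSME, PSMF or PSMG, except PSMB8 and PSMB9. The rule matched 44 GeneNames with 109 probes, and 43 of them, with 107 probes, had a probe well above background on 6 or more of the 36 arrays. PSMD5, a chaperone of the regulatory particle, was left out because its only probe reached that level on 3 arrays. No probe carried the name PSMA1, PSMA7 or PSMA8. All tests covered 33056 GeneNames, of which the 43 genes are a part, and 44796 of 60305 probes. The rule used no expression difference. Besides proteasome subunits, chaperones and activators, it took in PSMC3IP, which is named for binding PSMC3 but acts in meiotic recombination. PSMC3IP passed in no comparison.

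The pigs were Large White (LW), Creole (CR) or their cross (F1), 12 of each breed, and each breed had 6 animals killed in thermoneutral conditions (TN) and 6 killed under heat stress (HS). The labels give 24 °C for TN and 30 °C for HS, whereas the growth protocol gives a 5-day exposure to 32 °C. The labels hold no age, and the methods put the move to the climatic room at 11 weeks. All HS animals were killed after all TN animals, so that ambient temperature cannot be told apart from the day of slaughter or from a few days of age. Animals of 1 breed shared pens and litters, which the labels do not identify and the tests do not contain.

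The proteasome is the large protease that degrades proteins tagged with ubiquitin in the cytosol and nucleus. Its core, the 20S particle, stacks outer rings of alpha subunits on inner rings of beta subunits, which hold the active sites. The 19S regulatory particle caps the core, with ATPases that unfold substrates and non-ATPase subunits that bind ubiquitin and remove it, and dedicated chaperones assemble both. In the liver this system clears damaged and short-lived proteins, and its demand is known to rise when proteins misfold.

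The probes behind the differences described here were 60 bases long, and their sequences are those of the scanner tables. The sequences shown first belong to PSMG1, PSMD7, PSMD11 and PSME1. PSMG1 carries the temperature difference, and PSMD7 and PSMD11 the breed differences with the smallest adjusted p. PSME1 was called in both CR and F1 against LW. PSMB6, whose probes are not shown, had a slightly smaller adjusted p than PSME1 in CR minus LW. For PSMG1 the first 30 of 60 bases are given, and for PSMD11 the 30 bases in capitals open a stretch of 36 bases that its probes A_72_P014521 and O10307 share.
PSMG1 probe A_72_P190616: gacccatccacccctttacggggagcagcg
PSMG1 probe O13433: acaaatgagattcagagtaacatttacacg
PSMD7 probe O4250: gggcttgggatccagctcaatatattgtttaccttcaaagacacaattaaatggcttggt
PSMD11 probe A_72_P014521: TGCCAGTTTTCATGTAATCTTTACTGGCCC
PSME1 probe O9406: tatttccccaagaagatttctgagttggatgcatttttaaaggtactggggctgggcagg
PSME1 probe A_72_P680482: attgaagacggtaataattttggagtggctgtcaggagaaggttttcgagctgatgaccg

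The arrays separated LW from the other breeds along the first principal component of all kept probes, which held 18.6% of the variance. On it, 5 arrays lay apart from their breed: LW TN replicates 1 and 6 lay towards the other breeds, and F1 HS replicates 1 and 2 and F1 TN replicate 3 lay towards LW. Calls without them are given for the temperature and breed comparisons. The correlations between genes include these arrays and were not computed without them. Hepatocyte markers averaged 15.9 to 16.2 on the log2 scale in every group. The mean of 5 macrophage markers was lower in CR and F1 than in LW, with group medians of 9.71 in LW TN, 9.61 in LW HS, 9.13 in CR TN, 8.91 in CR HS, 9.17 in F1 TN and 9.22 in F1 HS. In HS minus TN none of the genes of the 8 marker lists, which cover 7 cell types and the interferon response, passed. Fewer cells of a type and less RNA per cell cannot be told apart in bulk liver.

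The levels of the proteasome genes over the 36 animals had an SD of 0.09 to 0.42. The values are log2 signals after quantile normalization, averaged over the kept probes of a gene, and levels of different genes were not ranked because probes differ in brightness. The SD over the 36 animals was smallest for PSMB4, at 0.09, and for PSMD13 and PSMB7, both also 0.09 after rounding. PSMB4 and PSMB7 are beta subunits of the core, and PSMD13 is a subunit of the regulatory particle. The value of PSMB4 is a mean of 12 probes, that of PSMB7 of 3, and PSMD13 had 1 kept probe. The SDs of genes with different numbers of probes are therefore not directly comparable. The SD was largest for PSMB3, at 0.42, PSMD14, at 0.32, and PSMG3, at 0.31. PSMB3 is a beta subunit without an active site, PSMD14 is the enzyme that removes ubiquitin chains, and PSMG3 is a core assembly chaperone. The mean over the 43 genes was 10.22 ± 0.06 in LW TN, 10.16 ± 0.03 in LW HS, 10.19 ± 0.05 in CR TN, 10.17 ± 0.12 in CR HS, 10.19 ± 0.06 in F1 TN and 10.11 ± 0.12 in F1 HS (SD, n = 6 each). The extremes among animals were F1 HS replicate 3, at 9.95, and CR HS replicate 6, at 10.41.

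The comparison of HS with TN asked how liver responded to a short heat exposure. 1 of the 43 genes passed the threshold of an adjusted p under 0.05, and it was lower in HS. Over all genes tested, 0.832% passed, 0.442% higher and 0.39% lower in HS. The gene was PSMG1 (chromosome 13, 202762509 to 202775601 in Sscrofa11.1), whose product pairs with that of PSMG2 to assemble the alpha ring. In TN animals PSMG1 lay at a lowest value of 10.17, a median of 10.38 and a highest of 10.94. In HS animals these values were 10.02, 10.22 and 10.38. The ranges overlapped, and 17 of 18 HS animals lay below the TN mean of their breed. PSMG1 fell by 0.21 on the log2 scale (SE 0.0523, 95% interval -0.32 to -0.11, limma adjusted p = 0.0409), which is a fold of 0.863.

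Both PSMG1 probes moved the same way. Probe A_72_P190616 had a difference of -0.22 (limma adjusted p = 0.0444 over all probes) and O13433 one of -0.21 (adjusted p = 0.0685). Within the 5 slides, each of which held TN and HS animals, the PSMG1 difference ran from -0.28 to -0.16. These slide differences are not adjusted for breed. On slide 1 the HS animals were CR and F1 and the TN animals were LW, so temperature and breed cannot be told apart there. The highest TN value, 10.94, belonged to F1 TN replicate 3, and without that animal the difference was -0.18 (limma adjusted p = 0.0400). Without the 5 arrays that lay apart it was -0.19 (adjusted p = 0.0459). The call was lost without any 1 slide, at an adjusted p of 0.0917 to 0.164. It was also lost on leaving out any 1 of 15 arrays, at an adjusted p of 0.0509 to 0.0724: CR HS replicates 1, 3, 5 and 6, CR TN replicates 3, 5 and 6, LW TN replicate 2, LW HS replicates 4 and 6, F1 HS replicates 2, 3 and 5 and F1 TN replicates 1 and 4.

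The other chaperones, PSMG2, PSMG3, PSMG4, PSMD9 and PSMD10, did not pass the test in the HS minus TN comparison. PSMD8, a subunit of the lid of the regulatory particle, lay at a lowest, median and highest value of 12.18, 12.34 and 12.52 in TN and of 12.04, 12.20 and 12.46 in HS. Its difference was -0.14 (limma adjusted p = 0.0613), and 17 of 18 HS animals were below the TN mean of their breed. PSMA2, an alpha subunit, lay at 8.43, 8.52 and 8.75 in TN and at 8.18, 8.38 and 8.66 in HS, a difference of -0.13 (limma adjusted p = 0.126).

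The largest positive HS minus TN difference belonged to PSMC5, an ATPase of the regulatory particle. It lay at a lowest, median and highest value of 10.63, 10.94 and 11.22 in TN and of 10.83, 11.09 and 11.52 in HS. The difference was 0.17 (limma adjusted p = 0.130), with 16 of 18 HS animals above the TN mean of their breed. PSMB11, the beta subunit of the thymus proteasome, followed with 0.11 (adjusted p = 0.633), and PSMB3 with 0.06 (adjusted p = 0.893). The only PSMB11 probe was dim, at a mean of 6.08. The dimmest signal of a probe well above background was 4.80 to 5.27, depending on the array.

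Of the 43 differences, 37 were negative, or 86%, against 48.9% of all genes tested. The median difference was -0.04 over the 43 genes and 0.00 over all genes. These are descriptions of a list, and single genes beyond PSMG1 did not pass. The 43 genes varied together across animals, as described below, so their signs are not independent of each other. Negative differences were found for all 5 alpha subunits, 6 of 7 beta subunits, 4 of 6 ATPases, all 11 non-ATPases, 5 of 6 chaperones and 4 of 5 activators and inhibitor. Of the tissue-specific or immune beta subunits, PSMB10 was at -0.10 and PSMB11 at 0.11. Without single arrays the count stayed at 34 to 39 of 43, and it was 33 without slide 2. Under the other settings it was 32 to 39, where the number of genes could differ. Within slides, without adjustment for breed, the median difference ran from -0.07 to 0.003 and was negative on 4 of 5. The value of 0.003 is that of slide 1, where temperature and breed cannot be told apart. An unadjusted p under 0.05 was reached by 8 of the 43 genes, or 18.6%, against 12.9% of all genes.

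**Figure D1:**
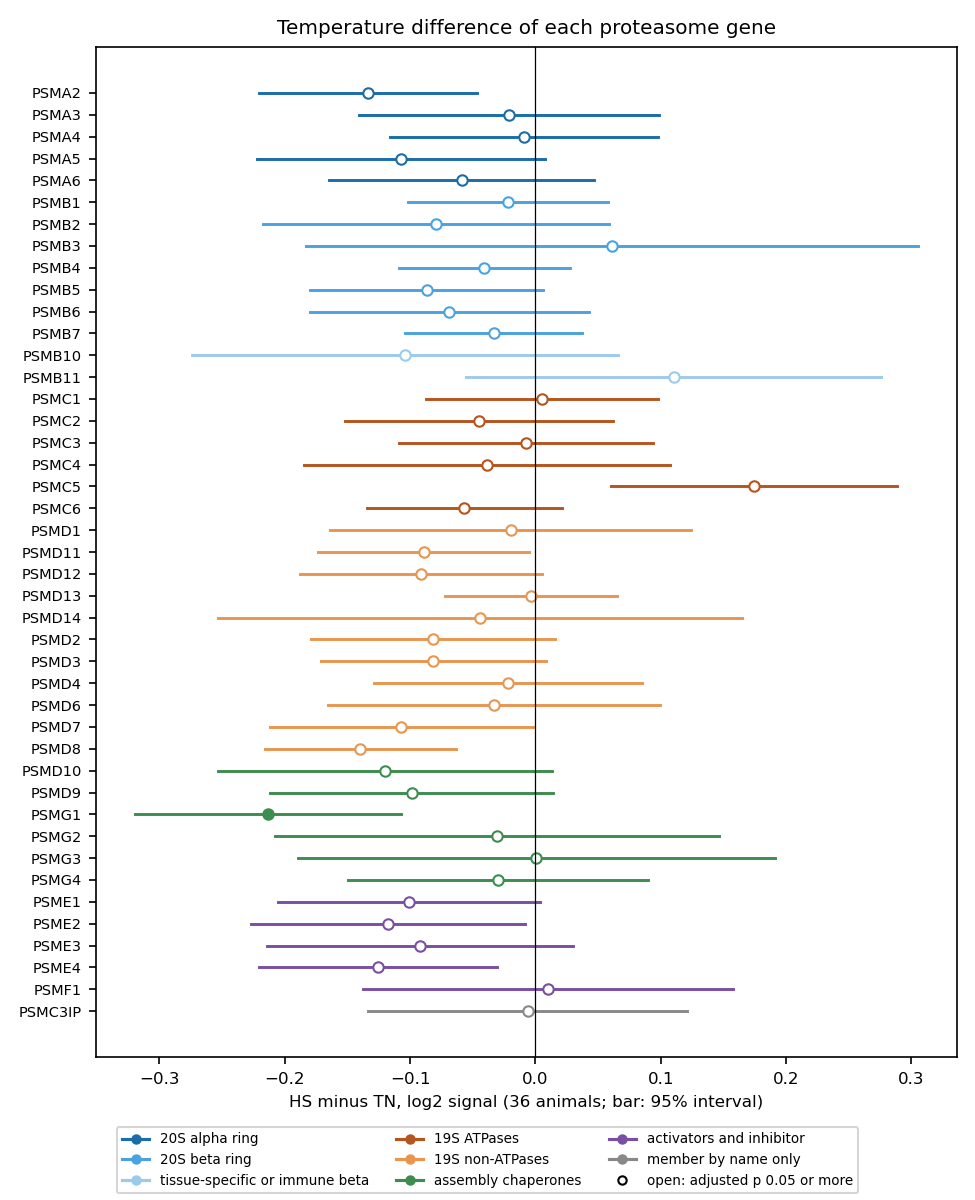
HS minus TN difference of each of the 43 proteasome genes, on the log2 scale, with its 95% interval and coloured by role. Open points did not pass the test. PSMG1, at -0.21, is the filled point, and 37 of the 43 points lie below 0.

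Within each breed, with 6 animals against 6, no proteasome gene passed the test. Over all genes tested, 0% passed in LW, 0.0514% in CR and 0.00908% in F1. An unadjusted p under 0.05 was reached by 3, 5 and 6 of the 43 genes in LW, CR and F1, against 5.05%, 7.28% and 9.3% of all genes. Negative differences were counted for 34 genes in LW, 27 in CR and 39 in F1, or 79.1%, 62.8% and 90.7%. Over all genes tested the shares were 50.7%, 48.2% and 48.1%, and the signs of the 43 genes are not independent of each other.

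In LW the extremes were PSMC5 (0.13), PSMG3 (0.11) and PSMC2 (0.10) on the positive side and PSMB2 (-0.25), PSMA2 (-0.24) and PSMB10 (-0.22) on the negative side, each at a limma adjusted p of 0.952 or more. In CR they were PSMB3 (0.27), PSMD1 (0.19) and PSMB11 (0.17) against PSMG1 (-0.24), PSME1 (-0.23) and PSME4 (-0.21). In F1 they were PSMC5 (0.25), PSMB11 (0.13) and PSMB2 (0.02) against PSMG1 (-0.30), PSMD10 (-0.23) and PSMD9 (-0.22). PSMB2 averages 2 probes, and its probe O10027 was well above background on only 18 of the 36 arrays. Its LW difference ran from -0.44 to -0.11 under other settings, so its place as the most negative in LW is not firm. PSMG1 had a mean of 10.37 ± 0.08 in LW TN and 10.27 ± 0.07 in LW HS, of 10.42 ± 0.15 in CR TN and 10.19 ± 0.12 in CR HS, and of 10.44 ± 0.29 in F1 TN and 10.13 ± 0.09 in F1 HS (SD, n = 6 each). Whether the temperature difference itself varied with breed was tested as an interaction, which 0% of all genes and none of the 43 passed in limma. The smallest p of the 43 belonged to PSMD3, at an adjusted p of 0.999, and PSMD3 alone had an unadjusted p under 0.05.

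The comparison of CR with LW called 12 of the 43 genes, 6 higher and 6 lower in CR. Over all genes tested 25.2% passed, 14.3% higher and 10.9% lower, so the 12 genes are a share close to the background. The 3 breed comparisons share animals, and their calls are not independent of each other. By role the calls were 3 of 5 alpha subunits, 2 of 7 beta subunits, 1 of 6 ATPases, 4 of 11 non-ATPases, 1 of 6 chaperones and 1 of 5 activators and inhibitor.

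PSMD7 had the smallest adjusted p (chromosome 6, 17047420 to 17057170). It is the lid subunit that pairs with the deubiquitinase PSMD14. Its lowest, median and highest values were 11.16, 11.30 and 11.51 in LW, 10.64, 10.79 and 11.20 in CR, and 10.83, 11.13 and 11.47 in F1. CR TN replicate 6, at 11.20, was the only CR animal to reach the LW range. PSMD7 was lower in CR by a log2 difference of -0.48 (SE 0.0632, 95% interval -0.60 to -0.35, limma adjusted p = 2.02e-06), a fold of 0.719, in 12 of 12 CR animals against the LW mean. Within the 5 slides the difference ran from -0.65 to -0.40. The slide values of this comparison, here and below, are not adjusted for temperature. The -0.65 is that of slide 1, where 1 CR HS animal was set against 2 LW TN animals. The only PSMD7 probe, O4250, shares 48 bases with a probe that the array names by a cDNA clone number, which differed by -0.43 (adjusted p = 1.3e-05). The match of O4250 to the PSMD7 transcript was not checked here.

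PSMD11, a scaffold subunit of the lid (chromosome 12, 42498711 to 42529853), differed in the opposite direction. Its lowest, median and highest values were 12.59, 12.70 and 12.88 in LW, 12.76, 13.03 and 13.27 in CR, and 12.71, 12.92 and 13.19 in F1. It was higher in CR by 0.28 (SE 0.0506, limma adjusted p = 0.000152) in 12 of 12 animals, and between 0.25 and 0.35 within each slide. Its probes A_72_P014521 and O10307 gave 0.29 and 0.26.

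**Figure D2:**
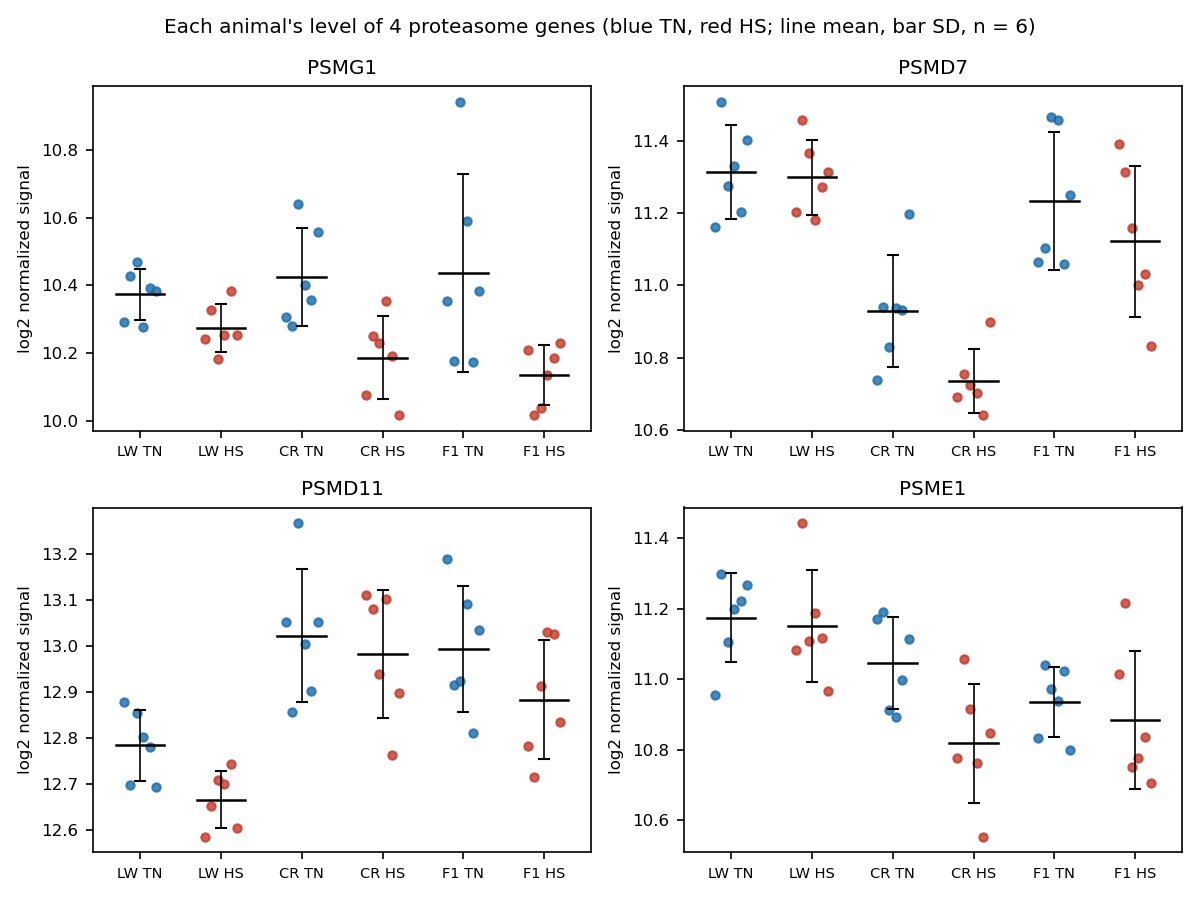
Log2 normalized signal of PSMG1, PSMD7, PSMD11 and PSME1 in each animal, by breed and temperature (points: animals; lines: means; bars: SD; n = 6 a group). CR animals lie lowest for PSMD7, LW animals lowest for PSMD11, and F1 TN replicate 3 is the high point of PSMG1 at 10.94.

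Among core subunits, PSMB6, which holds the caspase-like active site, was higher in CR. Its lowest, median and highest values were 12.65, 12.74 and 12.92 in LW and 12.75, 13.04 and 13.37 in CR. The difference was 0.25 (SE 0.0674, limma adjusted p = 0.00655), and 11 of 12 CR animals lay above the LW mean. PSMB3 was also higher, by 0.45 (SE 0.147, adjusted p = 0.0219), but in 8 of 12 animals. Of its 2 probes, O13284 gave 0.65 (limma adjusted p = 0.00142) and A_72_P394728 gave 0.25 (adjusted p = 0.237). PSMB3 values in CR ran from 8.10 to 9.49 around a median of 9.10. Those in LW ran from 8.22 to 8.70 around 8.50, so that CR spanned the whole LW range.

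By gene value, alpha subunits differed both ways. PSMA4 was higher in CR by 0.18 (adjusted p = 0.0348), while PSMA5 was lower by a difference of -0.20 (adjusted p = 0.0345) and PSMA6 by -0.17 (adjusted p = 0.0436). The PSMA4 probes were themselves split, at 0.32, 0.36 and -0.14. The PSMA5 probes A_72_P376623 and O13987 gave -0.33 (limma adjusted p = 0.0226) and -0.06 (adjusted p = 0.510). O13987 was dim, at a mean of 5.81, beside 11.48 for A_72_P376623. All 5 PSMA6 probes were negative, and 2 of them were called. PSMA4 was positive on 3 of 5 slides and PSME1 negative on 4 of 5, while the other 10 called genes kept their sign on all 5. On slide 1 breed and temperature cannot be told apart, since 1 CR HS animal stood against 2 LW TN animals. PSMA6 values ran from 11.92 to 12.23 in LW and from 11.64 to 12.28 in CR, which overlap over the whole LW range.

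In the regulatory particle, PSMC6, an ATPase, was lower in CR by a difference of -0.15 (SE 0.0471, limma adjusted p = 0.0170), with all 9 of its probes negative. PSMD2, a scaffold of the base, was higher by 0.16 (adjusted p = 0.0379), and PSMD4, a ubiquitin receptor, was lower by a difference of -0.17 (adjusted p = 0.0452). PSMG3, the chaperone that pairs with PSMG4, was higher by 0.32 (SE 0.115, adjusted p = 0.0388), with values of 11.08 to 11.81 in LW and 11.34 to 12.48 in CR.

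PSME1, a subunit of the ring-shaped PA28 activator, was lower in CR (chromosome 7, 75161830 to 75164531). Its lowest, median and highest values were 10.96, 11.15 and 11.44 in LW, 10.55, 10.91 and 11.19 in CR, and 10.71, 10.89 and 11.22 in F1. The difference was -0.23 (SE 0.0633, limma adjusted p = 0.00687), and 11 of 12 CR animals lay below the LW mean. Its partner PSME2, which lies beside it on chromosome 7 at 75154570 to 75157871, differed by -0.04 (adjusted p = 0.684). Of 6 interferon response genes 1, IFIT1, was lower in CR, at -0.59, none was called higher, and 2 had a positive difference. The immune beta subunit PSMB10 was at 0.13 and did not pass. Of the macrophage markers 3 of 5 were lower in CR, with CD163 at -1.31, C1QA at -0.80 and CSF1R at -0.56, and of the lymphocyte markers 3 of 6 were lower. Of the endothelial markers 2 of 4 were lower, CDH5 at -0.63 and KDR at -0.29, and of the stellate and fibroblast markers 1 of 5, DCN, at -0.44. Of the 7 hepatocyte markers APOA1 (-0.32) and FGB (-0.20) were lower, and of the 4 cholangiocyte markers KRT7 was higher, at 0.74. The part of these cell types or of interferon in the breed differences was not tested.

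Of the 12 genes, PSMD7, PSMD11, PSMB6, PSME1, PSMC6 and PSMB3 passed without any 1 array. PSMA4 was lost in 7 of the 36 fits that leave out 1 array, PSMA5 in 9, PSMD2 in 10, PSMG3 in 12, and PSMA6 and PSMD4 in 17 each. With slide as a block, PSMA6 (limma adjusted p = 0.0695) and PSMD4 (adjusted p = 0.0770) were no longer called. PSMB6, PSMA4, PSMD2 and PSMG3 did not pass with the authors' log2 values or with processed signals, where PSMB6 had adjusted p-values of 0.0683 and 0.0536, and PSMA5 did not pass with processed signals. PSMD7, PSMD11 and PSMB6 passed without any 1 slide. The count fell to 7 without CR TN replicate 3, to 6 without LW HS replicate 5, and to 3 without slide 3 or slide 4. Without the 5 arrays that lay apart, 15 genes passed, all 12 among them, beside 31.5% of all genes. Those arrays were chosen for lying on the side of the other breeds, so part of that rise is built in.

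The comparison of F1 with LW called 3 of the 43 genes against 16.5% of all genes tested, 9.31% higher and 7.18% lower. PSMD11 was higher in F1 by 0.21 (limma adjusted p = 0.00483, 12 of 12 animals above the LW mean). PSME1 was lower by a difference of -0.25 (adjusted p = 0.00667, 11 of 12 animals) and PSMA6 by -0.19 (adjusted p = 0.0333, 10 of 12 animals). The next largest were PSMG3 at 0.15, PSMD2 at 0.14 (adjusted p = 0.110) and PSMD10, a chaperone of the regulatory particle, at -0.19 (adjusted p = 0.0967). Without the 5 arrays that lay apart, 11 genes passed, beside 30% of all genes, including these 3. As the F1 arrays left out lay towards LW and the LW arrays towards the other breeds, part of that rise too is built in.

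The comparison of F1 with CR called 1 gene, PSMD7, against 1.38% of all genes, 0.641% higher and 0.741% lower. PSMD7 was higher in F1 by 0.35 (limma adjusted p = 0.00277) in 12 of 12 animals against the CR mean. Without the 5 arrays that lay apart, 3 of which are F1 animals with PSMD7 values of 11.31 or more, the difference was 0.27 (adjusted p = 0.0144). PSMG4 (0.16, adjusted p = 0.369) and PSMA3 (0.09) came next on the positive side, and PSMB3 (-0.45, adjusted p = 0.129), PSMB10 (-0.24, adjusted p = 0.321) and PSMB6 (-0.17, adjusted p = 0.253) on the negative side. None of these passed the test. PSMA3 has 1 dim probe, at a mean of 5.82, which was well above background on 35 of 36 arrays.

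Against the mean of both parent breeds, F1 differed in none of the 43 genes in limma, while 0.675% of all genes passed. 1 gene, PSME1, had an unadjusted p under 0.05, or 2.33% against 14.2% of all genes. Its difference was -0.14 (adjusted p = 0.237). The largest were PSMD7 (0.11), PSMA3 (0.08) and PSMD11 (0.07) on the positive side and PSMB3 (-0.23), PSMD14 (-0.17) and PSMB10 (-0.17) on the negative side. Without the 5 arrays that lay apart, 4 of the 43 genes passed, PSME1, PSMA6, PSMC5 and PSMD6, all lower in F1, beside 15% of all genes. Leaving out F1 arrays that lay towards LW moves F1 away from the mid-parent by construction, and these calls are no evidence of a departure from it. PSMA6 in F1 minus LW was lost in 7 of the 36 fits that leave out 1 array, and PSMD7 in F1 minus CR without slide 2 (adjusted p = 0.0524). In the 5 arrays that lay apart, PSMD7 was at 11.16 and 11.40 in LW TN replicates 1 and 6 and at 11.39, 11.31 and 11.47 in F1 HS replicates 1 and 2 and F1 TN replicate 3.

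**Figure D3:**
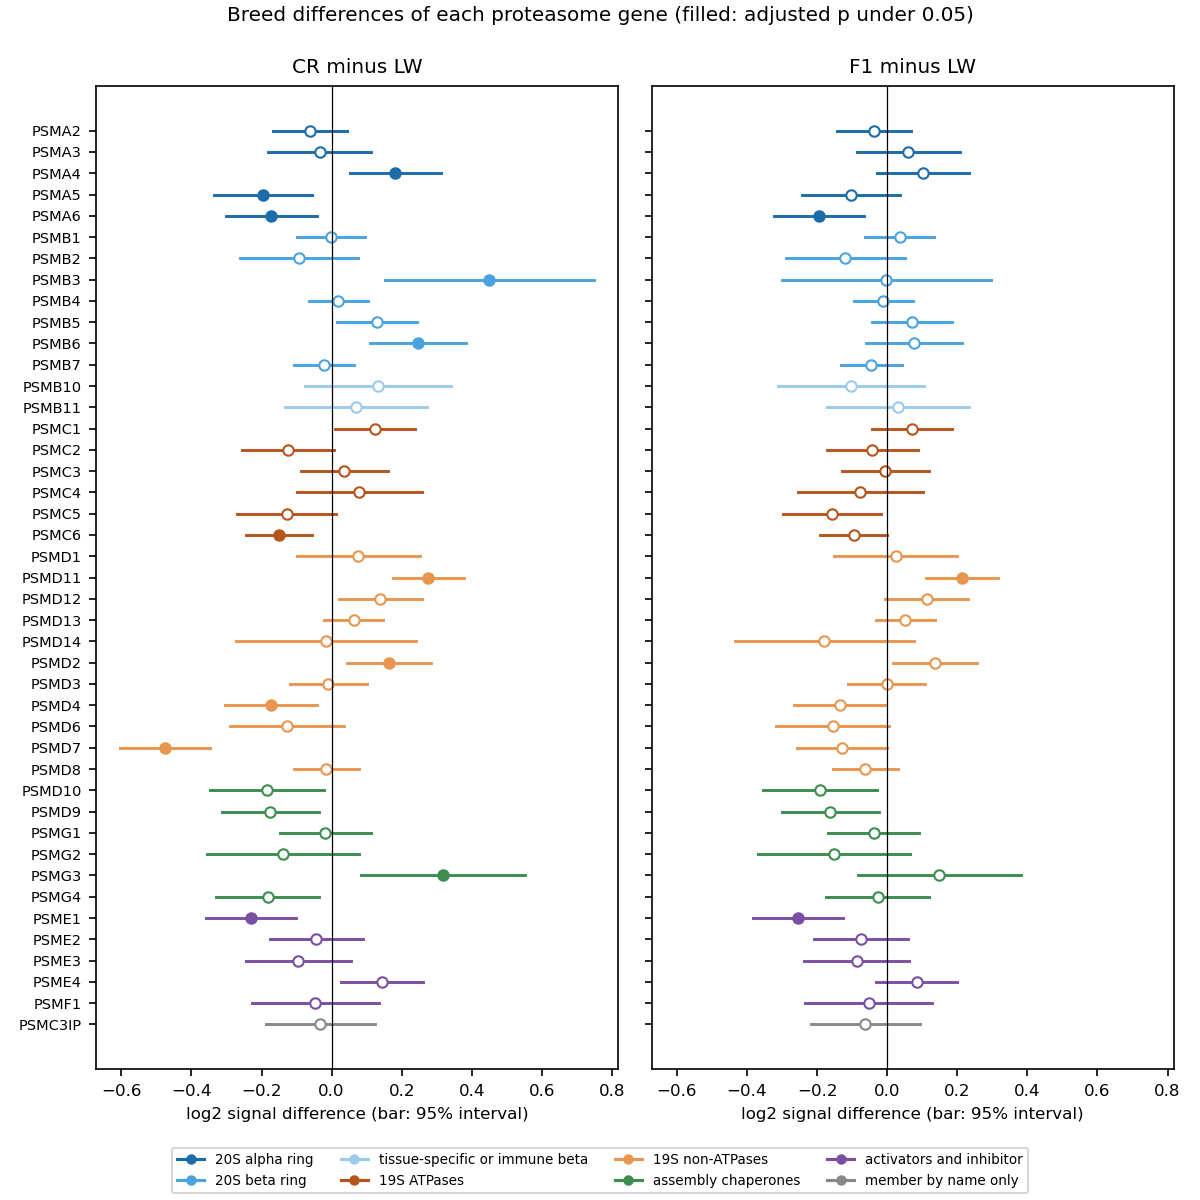
Breed differences of the 43 proteasome genes on the log2 scale with 95% intervals, coloured by role. The panels show CR minus LW and F1 minus LW. Filled points passed the test, 12 of them between CR and LW and 3 between F1 and LW.

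The probes of a gene did not always move together. Of the 107 probes, 1 passed between HS and TN, beside 0.857% of all probes. Between CR and LW 32 passed, beside 26.5%, between F1 and LW 16, beside 18.3%, and between F1 and CR 2, beside 1.5%. Of the 27 genes with 2 or more kept probes, all probes had the same sign in 20, 17, 16 and 15 genes in that order.

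PSMB4 and PSMC1 show the disagreement between probes, and sequences of probes on both sides are given. PSMB4 (chromosome 4, 97835544 to 97837909) is a beta subunit with 12 probes, and PSMC1 (chromosome 7, 112027904 to 112041360) is an ATPase with 4. The capitals mark an 18-base run that PSMB4 probes A_72_P578388 and A_72_P626548 share, and for A_72_P215427 the first 30 of 60 bases are given.
PSMB4 probe A_72_P215427: ttgacctttgaccagggacttctttcatga
PSMB4 probe A_72_P658043: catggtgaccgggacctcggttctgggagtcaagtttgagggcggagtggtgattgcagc
PSMB4 probe A_72_P578388: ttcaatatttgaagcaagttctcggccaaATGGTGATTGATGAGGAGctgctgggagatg
PSMB4 probe A_72_P626548: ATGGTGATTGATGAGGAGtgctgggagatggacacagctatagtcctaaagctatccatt
PSMC1 probe A_72_P171911: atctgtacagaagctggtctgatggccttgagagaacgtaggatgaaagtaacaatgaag
PSMC1 probe A_72_P643454: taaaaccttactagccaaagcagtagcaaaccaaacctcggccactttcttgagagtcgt

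PSMB4 probe A_72_P215427 was higher in CR by 0.46 (limma adjusted p = 0.000672), whereas A_72_P658043 differed by -0.24 (adjusted p = 0.0342) and A_72_P578388 by -0.18 (adjusted p = 0.0371). A_72_P626548, which overlaps the last of these, differed by -0.15 (adjusted p = 0.0815). The mean over the 12 probes differed by 0.02 (adjusted p = 0.779), so that the gene value held probes called in opposite directions. PSMC1 probe A_72_P171911 was higher in CR by 0.26 (adjusted p = 0.000993) and A_72_P063371 by 0.45 (adjusted p = 7.8e-06), while A_72_P643454 was at -0.17 (adjusted p = 0.178). The gene value of PSMC1 was 0.12 (adjusted p = 0.101).

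PSME1 probes O9406 and A_72_P680482, shown above, gave -0.31 and -0.29, while a further probe, A_72_P035626, gave -0.09 (adjusted p = 0.217). Taking the brightest probe of each gene in place of the mean left 12 genes called for CR minus LW, of which 8 were shared. PSME1 (-0.09), PSMC6 (-0.09), PSMA6 (-0.08) and PSMD4 (adjusted p = 0.983) no longer passed.

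**Figure D4:**
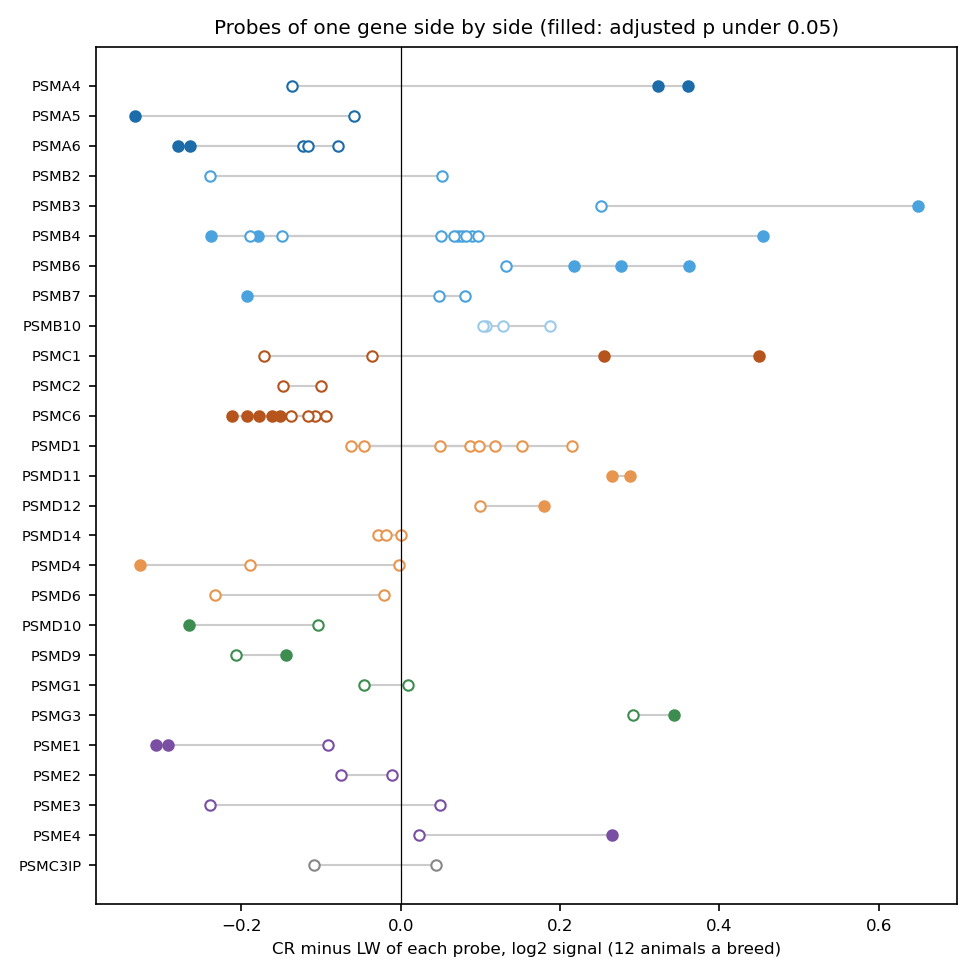
CR minus LW difference of each kept probe, on the log2 scale, for the 27 genes with 2 or more kept probes (12 animals a breed; filled points passed the test). PSMC6 and PSMD11 probes lie on 1 side of 0, and PSMB4 has filled points on both sides, from -0.24 to 0.46.

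The proteasome genes varied together across animals of the same group. With the group means removed, the Pearson correlation over the 36 arrays had a median of 0.23 over the 903 pairs of the 43 genes, with quartiles of 0.02 and 0.42 and extremes of -0.58 and 0.85. Over all pairs of 33014 genes the median was 0.002. The points share array, slide and normalization, and the values are a description. The arrays that lay apart on the first principal component were included, and the correlations were not computed without them. The median was 0.47 within alpha subunits, 0.30 within beta subunits, 0.51 within ATPases, 0.30 within non-ATPases, 0.20 within activators and inhibitor and -0.05 within chaperones. Between core and regulatory subunits it was 0.35 over 204 pairs. With slide means removed as well, the median over all 903 pairs was 0.27.

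The highest correlations were PSMA6 with PSMD4 (0.85), PSMD1 with PSMD14 (0.84), PSMD10 with PSME3 (0.84) and PSMA5 with PSMA6 (0.83). The lowest were PSMG3 with PSMA3 (-0.58) and PSMG3 with PSMC2 (-0.54). PSMG3 had a mean correlation of -0.30 with the other genes, PSMG4 one of -0.15 and PSMD11 one of -0.05, whereas PSMD4 had the highest, at 0.42. The correlations of PSMG4 ran from -0.52 with PSMD6 to 0.41 with PSMC3. The other core chaperones, PSMG1 and PSMG2, had positive means of 0.11 and 0.23. These correlations were not tested.

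**Figure D5:**
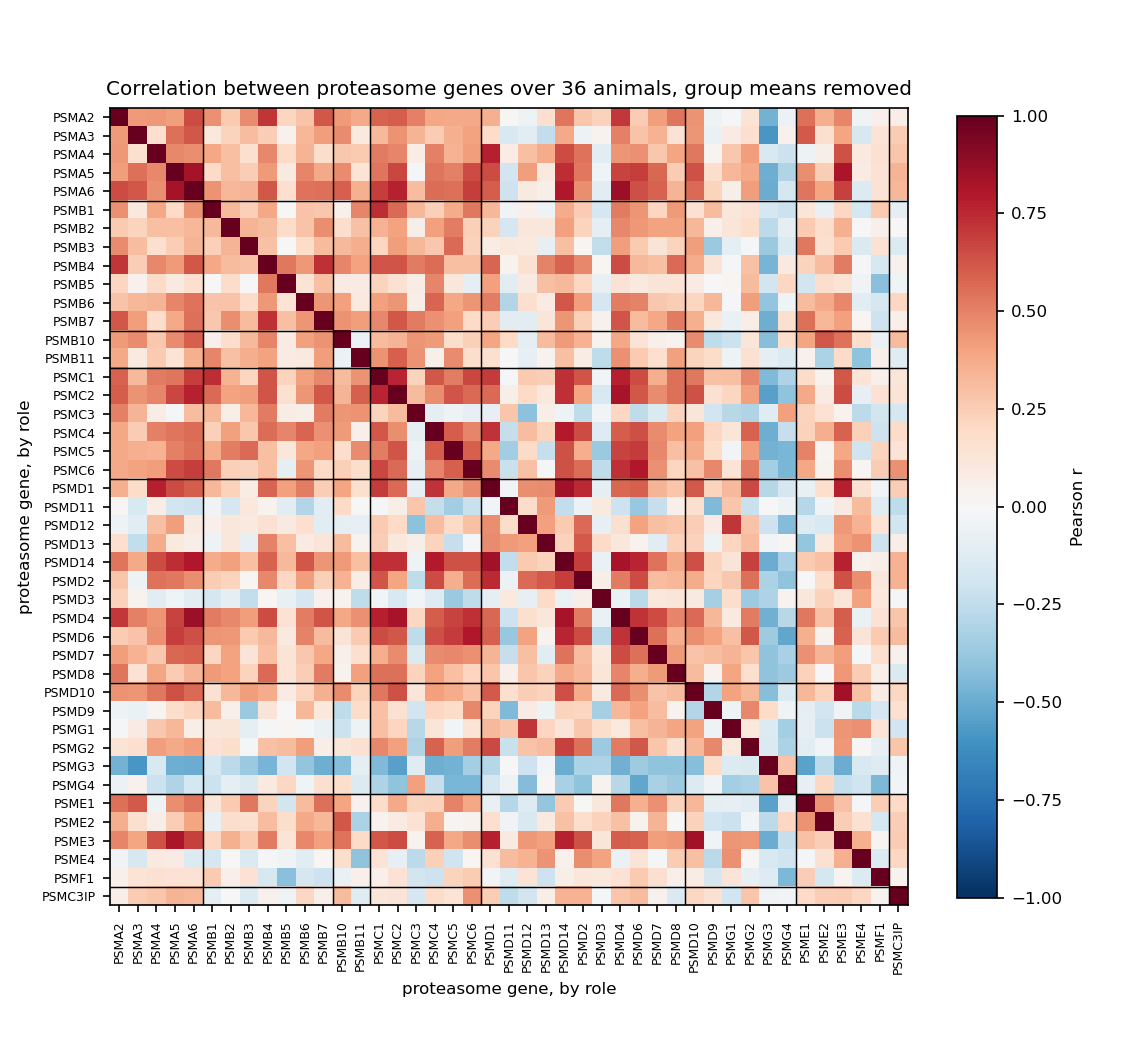
Pearson correlation between the 43 proteasome genes over 36 animals, group means removed, ordered by role (black lines part the roles; red positive, blue negative). Pairs within the alpha subunits and within the ATPases have medians of 0.47 and 0.51, and the row of PSMG3 stands out in blue.

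The genes lie on 14 chromosomes of Sscrofa11.1. Chromosomes 12 and 7 hold 8 each, and on both 3 of the 8 were called between CR and LW, beside 25.2% of all genes tested. On chromosome 12 these were PSMB3, PSMB6 and PSMD11. The share of all genes called on each chromosome was not computed.

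Other genes of the ubiquitin and proteasome pathway were read from a list of 36, of which 32 were measured. It was chosen with earlier results known. In HS minus TN none passed in limma, 5 had an unadjusted p under 0.05, and the median was -0.02. In CR minus LW 7 were higher and 2 lower, or 9 of 32 beside 25.2% of all genes, a share close to the background, and the median was -0.02. Higher in CR were USP14 (0.29) and KIAA0368 (0.24), which bind the proteasome, VCP (0.19), the segregase that extracts ubiquitinated proteins, and the peptidases NRD1 (0.41), LAP3 (0.29), TPP2 (0.23) and ERAP1 (0.27). NSFL1C (-0.22), a cofactor of VCP, was among those lower. In F1 minus LW 7 of 32 passed, beside 16.5% of all genes. USP14 (0.22), NRD1 (0.35) and ERAP1 (0.24) were among those higher, and the ubiquitin genes RPS27A (-0.30) and UBB (-0.22) and the inducible subunit PSMB9 (-0.37) were lower. In F1 minus CR, RPS27A (-0.24) and TPP2 (-0.31) were lower and none was higher, or 2 of 32 beside 1.38% of all genes. Between HS and TN, PSMB8 and PSMB9 differed by -0.09 (adjusted p = 0.893) and -0.02 (adjusted p = 0.972).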

How the data were processed

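Liver RNA of 36 pigs was hybridised to 1-colour porcine Agilent arrays of 60-base probes, 1 array an animal, on 5 slides that each held TN and HS animals. The deposited scanner tables hold spot intensity from Agilent Feature Extraction 10.10.1.1, not normalized. The authors also deposited a log2 table of processed values; its columns have medians near 7.66 and its probes are largely centred, by a step not given in the sources used here, so it served only as an alternative. Each of its 36 columns matched its own array best once probe means were removed. The correlation with the same array was 0.79 to 0.86 on slide 1 and 0.94 to 0.99 on the other slides. The cause of the lower values on slide 1 was not tested. Columns were assigned to samples by the labels.

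The median signal per spot was quantile-normalized, as log2, after 107 non-uniform spots were set missing and control probes left out. No spot was saturated. Kept probes were well above background on 6 or more arrays, and the kept probes of a gene, by GeneName without regard to letter case, were averaged. The number of arrays limits the precision. Tests used limma 3.58.1 in R 4.3.3 with breed and temperature as additive terms, and with 6 group means for within-breed differences and the interaction. P-values were adjusted by Benjamini-Hochberg over all genes (or probes) and called under 0.05. Each animal is 1 sample. Pens, litters and slaughter days, which the methods used as random effects, are not in the labels and were not modelled. Every gene past the threshold is named, and where fewer than 6 passed, also the 3 largest differences on each side. Members and lists were chosen with earlier results of these data known. Alternatives changed background correction, scaling, filter, probe choice, variance model, array weights, slide block, the deposited log2 values and the arrays included; requiring names in capitals was chosen after seeing the data. Gene positions are from RefSeq, Sscrofa11.1. Some genes of the pathway list are not reported here. The fit was tested on simulated data with independent noise for each gene and array. Those data held no slide, pen or litter effects, so that test cannot show errors that such effects would bring.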

Additional observations from a re-analysis of the deposited data

Results flagged for a closer look

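Among the 6 animals of each group, the gap between an extreme animal and its nearest neighbour was compared with the range of the group for 13 named genes, 78 checks in all, of which 3 exceeded Dixon's 95% critical value. Chance exceeds it in about 1 in 20 groups. PSMB3 in CR HS replicate 5 was at 8.10, below the nearest animal at 8.98 (ratio 0.637). PSMB6 in F1 HS replicate 3 was at 12.44, below the nearest at 12.80 (ratio 0.630), and this animal also had the lowest mean over the 43 genes. PSMD2 in LW TN replicate 6, one of the arrays that lay apart from LW on the first principal component, was at 12.94, above the nearest at 12.70 (ratio 0.670).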

How the results depend on the processing

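No paired analysis was possible because replicate numbers follow accession order and the labels give none. The number of genes called for HS minus TN, 1 as reported, was 2 with normexp, 0 with the authors' log2 values (PSMG1 adjusted p = 0.0576), 0 with no filter (0.0524), 0 without each of the 5 slides and 0 to 2 without single arrays. For CR minus LW, 12 as reported, it was 3 without slide 3 and 3 without slide 4, and 6 to 14 without single arrays. Of the 12 genes, 8 were also called with the authors' log2 values, 7 with processed signals, 9 with no filter, 8 with the brightest probe and 10 with the slide block. For F1 minus LW, 3 as reported, it was 1 with the authors' log2 values, 7 with array weights, 11 without the 5 arrays that lay apart, 0 without slide 3, 1 without slide 4 and 2 to 4 without single arrays. For F1 minus CR, 1 as reported, it was 0 without slide 2, 2 without slide 5, 0 with names in capitals only, since PSMD7 is not written so, and 1 to 2 without single arrays. Against the mid-parent it was 4 without the 5 arrays. Within breeds and for the interaction it was 0 in every setting. Over all genes, HS minus TN calls numbered 275 as reported, 343 with normexp, 344 with the authors' values, 168 with no filter and 33 to 62 without single slides. The sign turned for 4 small differences: PSMB3 in HS minus TN with the brightest probe (-0.0012) and without the 5 arrays (-0.0159), PSMA3 against the mid-parent without them (-0.0165), PSMB11 within F1 without them (-0.0396), and PSMB2 within F1 with processed signals (-0.00245), normexp (-0.012), probes above background on all arrays, the brightest probe or names in capitals (each -0.0264), the slide block (-0.0152), without the 5 arrays (-0.0471) and without slide 1 (-0.0304), against -0.0304 to 0.0487 without single arrays. Elsewhere the cause of a lost or gained call was not tested, except that fits without arrays or slides have fewer samples. Of the values of named genes under the alternatives, 2617 kept direction and side of the threshold, 160 lost it, 11 gained it and 14 turned sign.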
